A study of Mus musculus with 8 samples.

Results

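Complement is a set of plasma and membrane proteins that tags microbes and damaged cells and can punch pores in their membranes. Lectins and C1q recognise a surface, attached proteases cleave C4 and C2 to build an enzyme that splits C3, factor B and properdin amplify that step, and C5 to C9 assemble the pore. Hepatocytes make most of the circulating components, and soluble and membrane-bound inhibitors limit the cascade on host cells.

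Of 34 complement components, regulators and receptors listed by symbol, 30 had a probe set that the array annotation assigned to that symbol alone, out of 19938 genes so measured, and each had exactly 1 such set. C3, Cfd, C1s and Crp1 are not analysed here. Values are log2 intensities from Affymetrix arrays that read transcripts with many probes, so a difference of 1 is a doubling. The 2 groups were male mice, 8 weeks old. Of the 8 samples, 4 had Hmgb1, the gene of a DNA-binding chromatin protein, deleted by Albumin-Cre, a recombinase under a promoter active in hepatocytes. The other 4 were from littermates with floxed Hmgb1 alleles, and since the titles name Cre for the deleted livers alone, its presence and Hmgb1 loss cannot be told apart.

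The labels give the background both as C57Bl/6, with 5 backcrosses, and as Balb/c, and the tissue both as whole liver and as liver stellate cells. The hepatocyte product albumin (Alb) had log2 intensities of 13.26 to 14.03 in the deleted livers, against 13.95 to 14.01 in the floxed controls, where array medians were 6.08 to 6.22. The stellate cell markers Lrat, Des and Reln lay above every array median. Their values ran from 6.65 to 9.29 in deleted livers and from 6.73 to 9.23 in controls. The neutrophil marker S100a8 lay at 4.99 to 5.04 in deleted livers and 4.90 to 5.12 in controls, below every array median. Each sample is called a liver here after its source label. Whether the arrays come from separate animals is not stated, and p-values then measure only the spread among the arrays, which may be technical. Hmgb1 itself fell on its own probe set, at 4.60 ± 0.31 in deleted livers and 5.50 ± 0.19 in controls (SD, n = 4 each), a difference of −0.91 on the log2 scale (limma adjusted p = 0.0216). All 8 values of this set, 4.20 to 5.78, lay below every array median, the filter on dim genes removed it, and 34 further sets that share the symbol with other genes were not used. The call was lost with every probe set in the test (adjusted p = 0.0652) and when any of 4 arrays was left out (0.0730 with deleted 3 left out, 0.0687 with deleted 4, 0.0561 with control 3, 0.0797 with control 4). Floxed control 1 stood apart from the other arrays, at −26.6 on the first principal component against −11.4 to 11.7 for the rest.

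Susd4 was the only complement member past the threshold of an adjusted p of 0.05, and it fell. Susd4 encodes a membrane protein with sushi domains, the module shared by many complement regulators, and is described as an inhibitor of complement activation. Its log2 intensity was 6.88, 6.82, 7.12 and 7.05 in the deleted livers, against 7.67, 9.28, 9.16 and 8.88 in the floxed controls. All 4 deleted livers lay below all 4 controls, and control 1 was the control nearest to them. The deleted livers lay closer together than the controls, with means of 6.97 ± 0.14 in deleted livers and 8.75 ± 0.74 in controls (SD, n = 4 each). The control SD exceeded that of 99.8% of all genes, and the deleted SD that of 70.8%. The difference was −1.78 on the log2 scale (limma adjusted p = 0.0216, SE 0.28, 95% interval −2.41 to −1.15), or 3.43-fold lower with an interval of 2.22-fold to 5.31-fold.

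The share of all genes past the same threshold was 0.692%, 0.396% as lower and 0.296% as higher in the deleted livers, beside 1 lower and 0 higher of 30 complement members. With scaling the split of all called genes moved, from the 59 higher and 79 lower here to 153 higher and 111 lower after quantile normalization applied again and to 33 and 28 with each array centred on its median. The call of Susd4 was lost with every probe set in the test (adjusted p = 0.0718), with arrays centred on their medians (0.0508), and without deleted 1 (0.0548), deleted 2 (0.0694), deleted 3 (0.0653), deleted 4 (0.0845), control 2 (0.0545), control 3 (0.0699) or control 4 (0.0938). Without control 1 it was −2.14 (adjusted p = 8.15e-06).

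**Figure D1:**
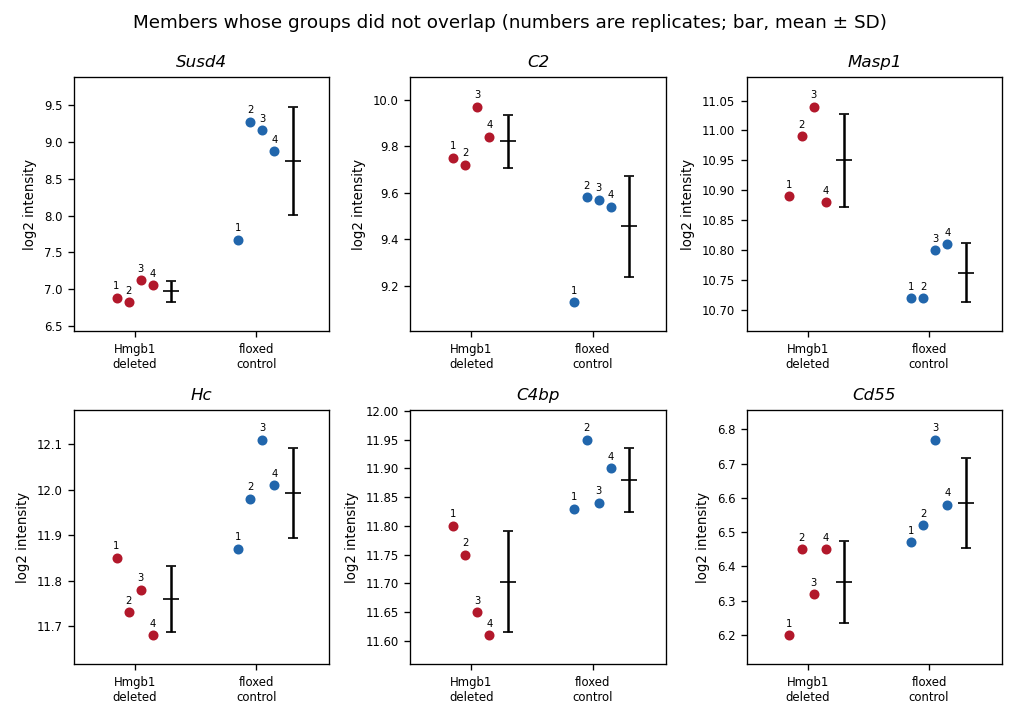
Log2 intensity (vertical axis, own scale per gene) of the 6 complement members whose deleted and floxed control values did not overlap; points are arrays numbered by replicate and bars are means ± SD. Susd4 lay between 6.82 and 7.12 in deleted livers and between 7.67 and 9.28 in controls, while the means of the other 5 members differed by 0.18 to 0.36 in size.

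RefSeq (GRCm38.p6) gives Susd4 a pair of annotated starts on chromosome 1, and the windows around them are shown because Susd4 carries the one called difference. Each window is on the plus strand, runs from 250 bases before to 50 bases after the start, and has its CG pairs in capitals. The upstream window spans chr1:182763966-182764265 and the downstream one chr1:182764646-182764945.
Susd4 upstream start: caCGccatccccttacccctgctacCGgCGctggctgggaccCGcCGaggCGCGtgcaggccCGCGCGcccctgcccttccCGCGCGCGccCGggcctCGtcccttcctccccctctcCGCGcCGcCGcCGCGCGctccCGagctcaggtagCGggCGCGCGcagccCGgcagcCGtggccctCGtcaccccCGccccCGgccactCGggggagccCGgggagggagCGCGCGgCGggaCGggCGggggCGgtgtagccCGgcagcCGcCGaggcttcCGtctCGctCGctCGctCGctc
Susd4 downstream start: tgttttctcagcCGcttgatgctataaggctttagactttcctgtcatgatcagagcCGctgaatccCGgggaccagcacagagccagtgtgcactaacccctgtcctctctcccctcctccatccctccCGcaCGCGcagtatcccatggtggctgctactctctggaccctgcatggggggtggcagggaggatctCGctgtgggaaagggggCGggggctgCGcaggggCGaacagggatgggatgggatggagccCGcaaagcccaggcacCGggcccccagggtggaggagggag
The upstream window held 50 CG pairs and 81.3% G and C, more CG pairs than 99.1% of the 32851 promoter windows in that table, whose median was 7. The downstream window held 12 CG pairs and 63.7% G and C.

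The letters of sites for transcription factors known to act on liver complement genes were searched on both strands of these windows. They were TTCNNNGAA for STAT factors, TTNNGNAA for C/EBP, GTTAATNAT for HNF1 and GGGANTTTC for NF-kappaB, where N is any base. Neither Susd4 window held any of them. For the members as a whole, 23 of 30 matched the table, with 25 windows. Masp1, C2, C4b, Cfb, Serping1, Cfi and Clu had no window and were not searched. STAT letters were in 5 of the 25 (8.30% of all windows held them), those of C8a, Masp2, C1ra, Vtn and Cpn2. C/EBP letters were in 10 (40.0%, against 40.7%), and HNF1 letters in 2, those of C4bp and Hc (8.00%, against 0.801%). NF-kappaB letters were in 0 (1.11% of all windows). A match describes letters only and the arrays do not measure binding.

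**Figure D2:**
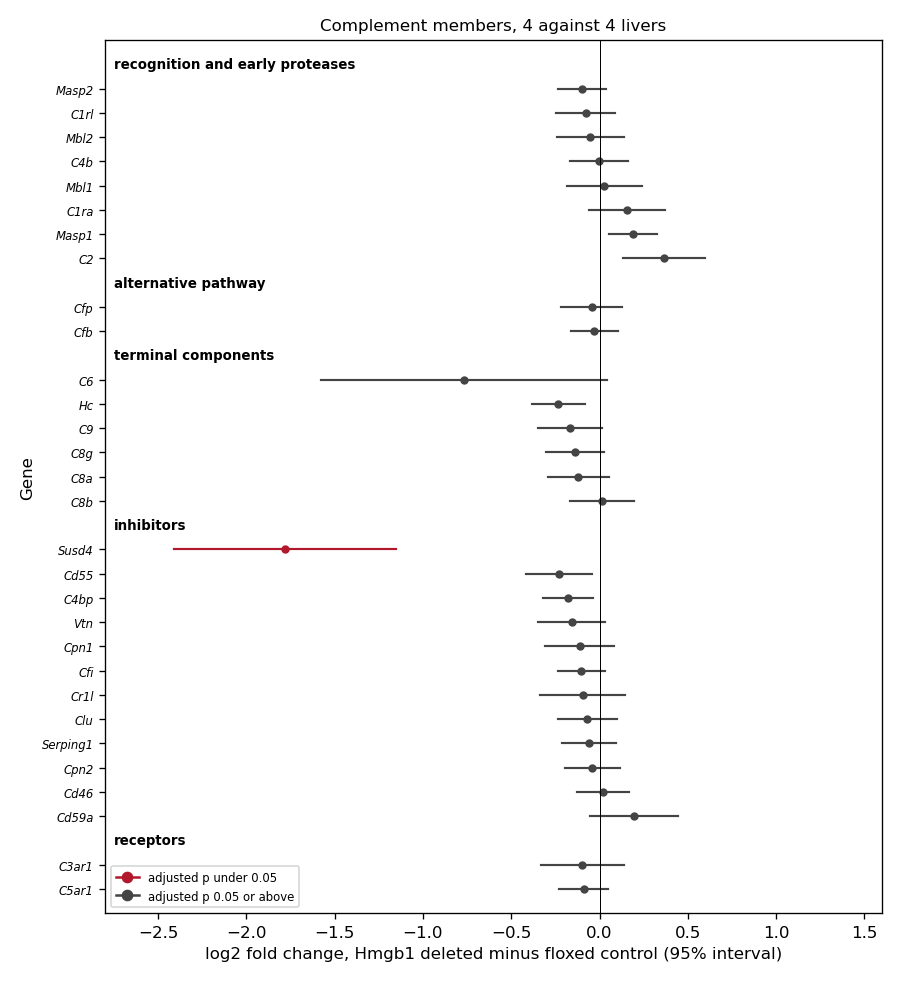
Log2 fold change, deleted minus floxed control, with its 95% interval (horizontal axis) for the 30 complement members grouped by role, red where the adjusted p was under 0.05. Susd4 at −1.78 stands alone, and C6 has the widest interval (−1.58 to 0.040). Within 1.5-fold of no change lie 27 of the 30 intervals, or 90.0%, against 97.2% of all genes.

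The other 29 members had adjusted p of 0.197 or more. Among the 30, 23 had a lower and 7 a higher mean in the deleted livers, with a median log2 fold change of −0.084, beside 0 over all genes tested, of which 49.8% were lower. After quantile normalization applied again, 20 of the 30 were lower. The 95% intervals of 27 members lay within 1.5-fold in either direction, a share of 90.0%, against 97.2% of all genes. Those of 28 members lay within 2-fold, against 19817 of all 19938 genes. For most members a larger difference lay outside the interval, but both shares were lower than those over all genes. For 25 of the 30 members the difference was under 0.2 in size, against 18253 of all 19938 genes, a larger share. Deleted 4 was the lowest of the 8 arrays for 13 members and control 1 for 8. The median deviation of the members from their own means over the 8 arrays was −0.12 on deleted 4, −0.021 to −0.0038 on the other deleted arrays, −0.061 on control 1 and 0.054 to 0.081 on the other controls.

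Hepatocyte markers lay in the same direction as most members: 14 of 15 measured had a lower mean in the deleted livers, with 0 past the threshold. Their mean log2 intensity was 12.41 to 12.81 on the deleted arrays and 12.78 to 12.84 on the controls, and 12.41 was that of deleted 4. In such bulk samples fewer cells of a type and less RNA per cell cannot be told apart. Deleted 4 also had the lowest array median, 6.08, and the part of array scaling in these levels was not tested. Sinusoidal endothelial markers were lower for 12 of 12, at mean levels of 8.75 to 8.89 in deleted livers and 8.95 to 9.14 in controls. Of these Clec4g, a lectin of those cells, fell (−0.61, limma adjusted p = 0.00628). Macrophage markers were higher for 10 of 15 and lay between 8.44 and 8.57 in deleted livers and between 8.44 and 8.58 in controls. The macrophage list includes C1qa, C1qb, C1qc and Vsig4 and the stellate list Colec11, all also counted among the other complement genes. All 4 erythroid markers measured had a lower mean, and 0 passed; their levels lay at 7.79 to 7.91 in deleted livers and 8.08 to 8.38 in controls, and stellate cell markers lay at 7.98 to 8.09 in deleted livers and 8.01 to 8.08 in controls. The mean levels of the endothelial and erythroid lists did not overlap between the groups. Taken singly, Clec4g, Oit3, Fcgr2b, Alas2, Car1 and Car2 did not overlap and the other measured markers of these lists did. Over all genes 5.57% did not overlap. Cholangiocyte levels met when rounded, at 5.52 to 5.72 in deleted livers and 5.72 to 5.79 in controls. Those of neutrophil markers and of T, B and NK cell markers overlapped. The part of any cell type in the complement values was not tested.

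**Figure D3:**
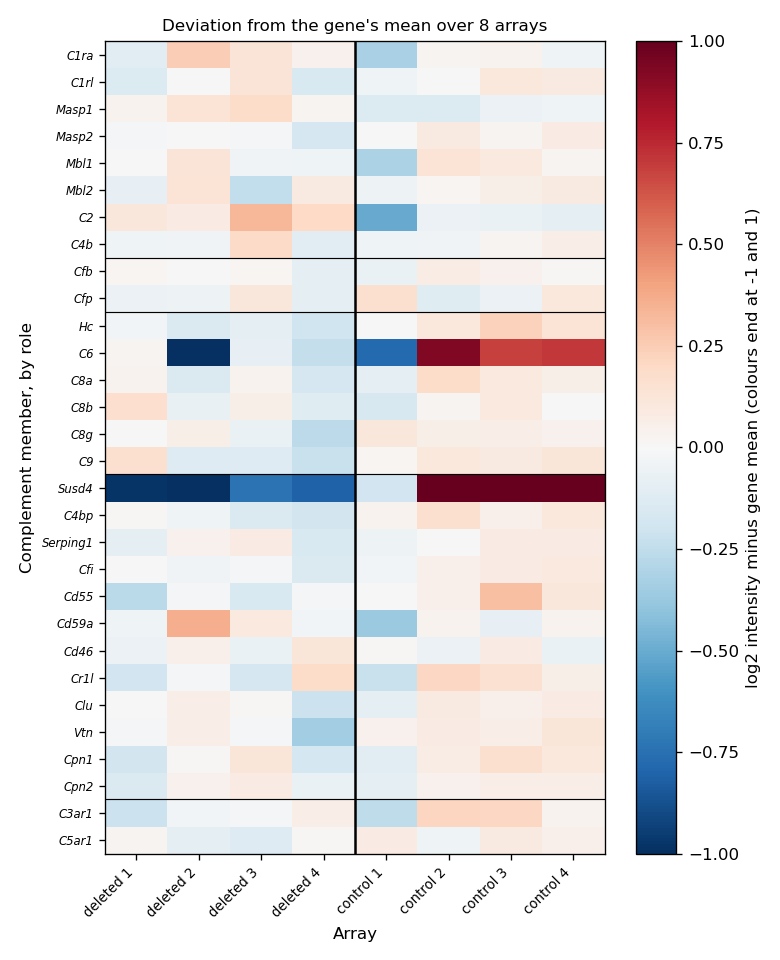
Log2 intensity of each complement member (rows, by role) minus its mean over the 8 arrays (columns, deleted left of control); red is above and blue below that mean, and colours end at −1 and 1. Susd4 and C6 have the strongest colours, and the column of deleted 4 is blue in most rows.

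Groups did not overlap for 6 of the 30 members, against 5.57% of all genes. Susd4, Hc, C4bp and Cd55 were lower (2.3% of all genes) and C2 and Masp1 higher (3.28%) in the deleted livers. This is a description, since the list was drawn up with earlier results of these data known. None of the 5 besides Susd4 passed the threshold over all genes.

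Recognition molecules and early proteases were evenly divided, 4 of 8 higher and 4 lower, with 0 past the threshold. C2, the protease that joins C4 in the convertase of the classical and lectin pathways, had the highest log2 fold change of all members. It had 9.75, 9.72, 9.97 and 9.84 in the deleted livers, against 9.13, 9.58, 9.57 and 9.54 in the controls. The groups were apart, and control 1 was the lowest array. That fold change was 0.36 (SE 0.10, 95% interval 0.13 to 0.60, limma adjusted p = 0.197), and 0.26 without control 1. Cfb, next to C2 on chromosome 17 with 0 coding genes between them, had −0.030 (95% interval −0.16 to 0.10), and the difference between the neighbours was not tested.

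Masp1 encodes a protease carried by mannose-binding lectin and collectins. It had 10.89, 10.99, 11.04 and 10.88 in deleted livers, against 10.72, 10.72, 10.80 and 10.81 in controls, or 0.19 higher on the log2 scale (SE 0.062, limma adjusted p = 0.289). Its partner Masp2, which cleaves C4 and C2, had means of 11.65 ± 0.080 in deleted livers and 11.75 ± 0.042 in controls (SD, n = 4 each), a fold change of −0.10. The mannose-binding lectins themselves, Mbl1 and Mbl2, had 0.028 and −0.052. Mbl1 ran from 10.93 to 11.10 in deleted livers and from 10.66 to 11.11 in controls, with control 1 lowest. C1ra, a protease of the C1 complex, had 0.15 (0.072 without control 1, 0.099 without deleted 2), its relative C1rl had −0.078, and C4b, which encodes C4, had −0.0025, all with overlapping groups. RefSeq lists C1s as an older name of C1s1, whose probe set was looked up after the values of the members were seen: it had a log2 fold change of 0.038 (95% interval −0.18 to 0.26). On the amplifying side, Cfb, the factor B protease, and Cfp, properdin, which stabilises its convertase, had −0.030 and −0.045.

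Of 6 terminal components 5 had a lower mean, and 0 passed. Hc, which encodes C5, had 11.85, 11.73, 11.78 and 11.68 in deleted livers, against 11.87, 11.98, 12.11 and 12.01 in controls. The groups did not overlap, but deleted 1 and control 1 lay next to each other. The log2 fold change was −0.23 (SE 0.069, 95% interval −0.38 to −0.081, limma adjusted p = 0.218). With array weights, which gave control 1 the weight 0.254, Hc passed (adjusted p = 0.0304), as it did without both arrays numbered 1 (−0.30, adjusted p = 0.0482).

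C6, which joins C5b to start the pore, differed most in size among the uncalled members and was the most variable. It had 10.50, 9.23, 10.39 and 10.24 in deleted livers, against 9.70, 11.40, 11.16 and 11.18 in controls. Deleted 2 was far below the other deleted livers and control 1 far below the other controls, and the groups overlapped through control 1. Its SD of 0.58 in deleted livers and 0.78 in controls (n = 4 each) exceeded that of 99.8% of all genes in each group. The log2 fold change was −0.77 (SE 0.37, 95% interval −1.58 to 0.040, limma adjusted p = 0.578). Without control 1 it was −1.16 (adjusted p = 0.0490), without both arrays numbered 1 −1.29 (0.0332) and with array weights −1.24 (0.0261), whereas without deleted 2 it was −0.48 (0.883).

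**Figure D4:**
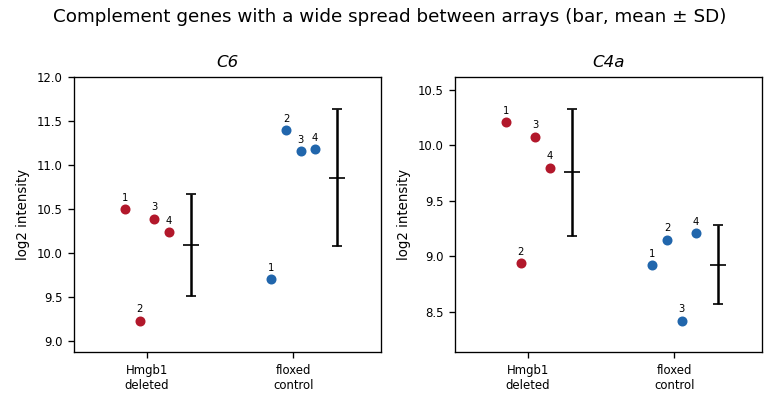
Log2 intensity of C6, a pore component, and C4a, a close copy of C4b, by group; points are arrays numbered by replicate and bars are means ± SD. C6 was lowest in deleted 2 (9.23) and in control 1 (9.70), and C4a was lowest among deleted livers in deleted 2 (8.94).

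The other pore components were steadier. C9, which polymerises into the pore, had 12.28, 11.99, 11.99 and 11.90 in deleted livers and 12.14, 12.23, 12.21 and 12.24 in controls, a log2 fold change of −0.16 (95% interval −0.35 to 0.016). Deleted 1 lay above all controls and the other deleted livers below them. The chains of C8 had −0.14 for C8g, −0.12 for C8a and 0.015 for C8b. C8a and C8b are neighbours on chromosome 4 with 0 coding genes between them, and the interval of C8b (−0.17 to 0.20) overlapped that of C8a (−0.29 to 0.054). C8g lay between 12.25 and 12.57 in deleted livers and between 12.56 and 12.63 in controls, with deleted 4 lowest.

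Inhibitors were lower for 10 of 12, and Susd4 alone among them passed. C4bp, the plasma protein that dismantles the C4-containing convertase, had 11.80, 11.75, 11.65 and 11.61 in deleted livers, against 11.83, 11.95, 11.84 and 11.90 in controls. The groups did not overlap, and the log2 fold change was −0.18 (SE 0.064, limma adjusted p = 0.351). Cd55, the membrane-bound decay-accelerating factor, had 6.20, 6.45, 6.32 and 6.45 in deleted livers, against 6.47, 6.52, 6.77 and 6.58 in controls. The log2 fold change was −0.23 (SE 0.084, limma adjusted p = 0.355), the highest deleted and lowest control values being next to each other. Cd55 and C4bp lie 1 coding gene apart on chromosome 1, where Cd46 and Cr1l form another pair of regulators with 0 between them. Cd46, a membrane cofactor for factor I that in mice is known mainly from sperm, had 0.020 and Cr1l, the rodent regulator Crry, had −0.095, both overlapping. Susd4 lies on the same chromosome, 69 coding genes from Cd46.

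Of the soluble inhibitors, Vtn, vitronectin, which keeps the pore out of membranes, had 13.25, 13.33, 13.25 and 12.92 in deleted livers and 13.31, 13.35, 13.33 and 13.39 in controls. Deleted 4 was the lowest array. The log2 fold change was −0.16 (95% interval −0.35 to 0.033), −0.068 without deleted 4 and −0.016 after quantile normalization applied again. Clu, clusterin, with the same task, had −0.070 (−0.0092 without deleted 4). Cfi, the protease that inactivates C3b and C4b, had −0.10, Serping1, the C1 inhibitor, −0.058, and the subunits of carboxypeptidase N, which trims the anaphylatoxins, −0.11 for Cpn1 and −0.040 for Cpn2. Cd59a, which blocks pore assembly on host cells, was the inhibitor with the highest fold change, at 0.19 (95% interval −0.055 to 0.44), which was 0.10 without control 1 and 0.11 without deleted 2. It ran from 10.67 to 11.08 in deleted livers and from 10.34 to 10.75 in controls. The receptors of the anaphylatoxins C3a and C5a, C3ar1 and C5ar1, had −0.098 and −0.090, with overlapping groups. Cd46 and C5ar1 were dim and were removed by a filter on dim genes.

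**Figure D5:**
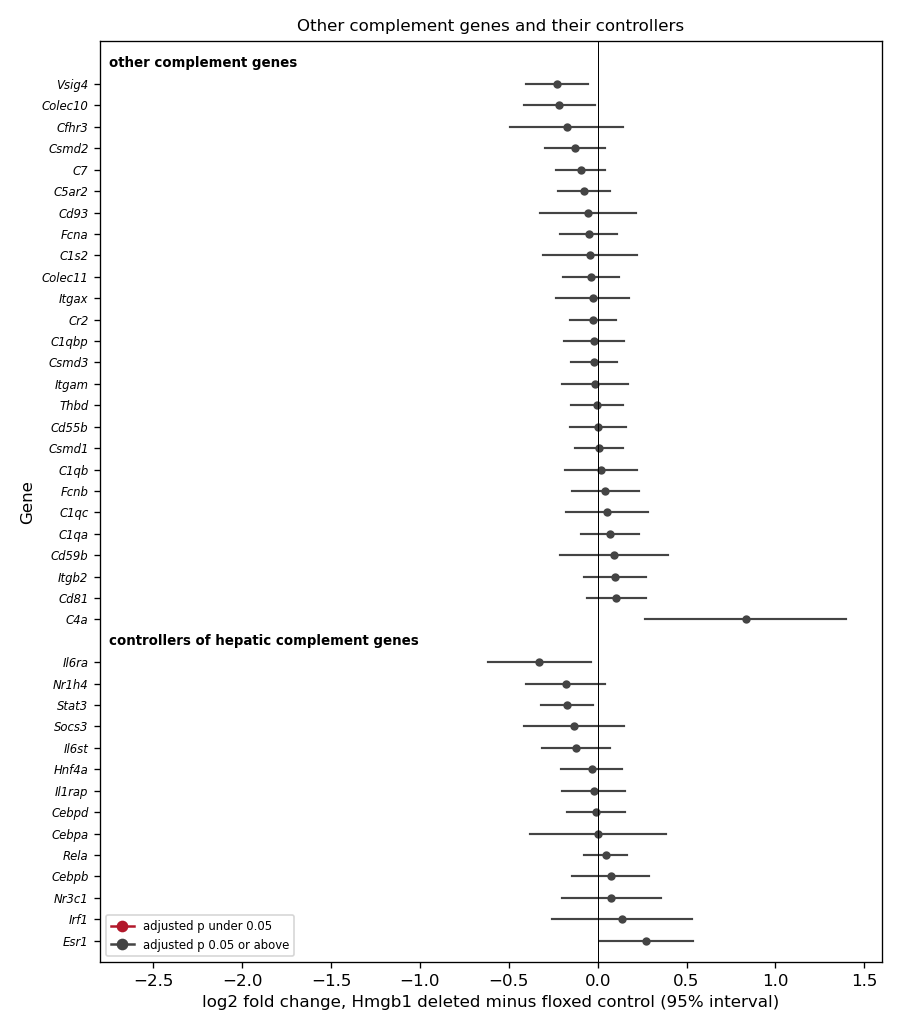
Log2 fold change, deleted minus floxed control, with its 95% interval (horizontal axis) for 26 other complement genes and 14 genes that control hepatic complement expression. None passed the threshold in limma, and C4a at 0.83 is farthest from 0.

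Among 33 other complement genes listed beside the members, 26 were measured, 10 higher and 16 lower, and 0 passed in limma (3 had an unadjusted p under 0.05, a share of 11.5% beside 9.46% of all genes). The largest difference was that of C4a, a close copy of C4b. It had 10.21, 8.94, 10.08 and 9.80 in deleted livers, against 8.92, 9.15, 8.42 and 9.21 in controls. Deleted 2 lay within the controls and the other 3 deleted livers above them. The log2 fold change was 0.83 (SE 0.26, limma adjusted p = 0.240), and 1.11 without deleted 2 (adjusted p = 0.0471). Probes of C4a and C4b may read both transcripts, so the assignment of this difference to C4a is uncertain.

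The chains of C1q, which recognises antibody on surfaces and is made by macrophages, had 0.068 for C1qa, 0.020 for C1qb and 0.052 for C1qc. Vsig4, a macrophage receptor for C3 fragments, had −0.23 (SE 0.080, limma adjusted p = 0.326), and Colec10, a liver collectin, −0.22. Csmd2 had −0.13, C7, a pore component, −0.095 and Cd81, a partner of complement receptor Cr2 on B cells, 0.10. Csmd2 and C7 were dim and were removed by the filter on dim genes, which kept 18 of the 26 other complement genes. Of 18 listed controllers of hepatic complement genes 14 were measured and 0 passed in limma (3 had an unadjusted p under 0.05, or 21.4%, beside the 9.46% of all genes). Il6ra, the interleukin-6 receptor, had −0.33 (95% interval −0.61 to −0.040), Stat3, its transcription factor, −0.17, Socs3, the feedback inhibitor, −0.13 and Il6st, the signalling chain, −0.12. Nr1h4, the bile acid receptor, had −0.18 and Esr1, an oestrogen receptor, 0.27, with adjusted p of 0.407 or more over all 14.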

How the data were processed

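RNA (150 ng) from 8 liver samples was amplified, biotin labelled and hybridised, per the labels' protocols. The deposited values are log2 intensities per probe set with 2 decimals, made with RMA per the submitters' processing notes. For its version, the software and the genome build, nothing is stated in the sources used here. Platform annotation gave 1 symbol to 21789 of 35556 probe sets, and the brightest set of a gene was taken (19938 genes). Groups were compared over all genes with limma 3.58.1 in R 4.3.3 (lmFit, eBayes, 2-sided) and Benjamini-Hochberg adjustment at 0.05. The script was tested on simulated data. Arrays give no read depth, so their number limits precision.

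Members and lists were chosen with earlier results of these data known. Every measured member is described, and of the other complement genes and controllers the 6 with the smallest p and any past the threshold are named; the C1q chains were added after their values were seen. Chromosomes and neighbours come from RefSeq GRCm38.p6. Python 3.11.15 and matplotlib 3.10.9 were used. Alternatives covered filtering, probe choice, scaling, variance priors, array weights, the replicate number and single arrays left out.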

Additional observations from a re-analysis of the deposited data

Results flagged for a closer look

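In 90 groups of 4 values, 7 held 1 array far from the other 3 by the gap to its neighbour over the group's range, where chance gives about 1 in 20, or 4.5. On floxed control 1, C2 had 9.13 against 9.54 to 9.58 on the other controls, C6 9.70 against 11.16 to 11.40, Cpn2 8.56 against 8.70 to 8.72, and the cytokine receptor chain Il6st 10.44 against 10.80 to 10.82. On deleted 4, Masp2 had 11.53 against 11.68 to 11.70 on the other deleted arrays, and Alb 13.26 against 13.93 to 14.03. On deleted 2, C1s1 had 10.27 against 10.15 on each of the others.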

How the results depend on the processing

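Complement members past the threshold numbered 1 here, 0 with all probe sets tested, 0 with arrays centred on their medians, 3 (Susd4, Hc and C6) with array weights, 3 without both arrays numbered 1 (a setting chosen after seeing the data), and 0 to 2 with single arrays left out. All genes past it numbered 138, with 57 for all probe sets, 61 for centred arrays, 526 for array weights, 366 without both arrays numbered 1, 264 after quantile normalization again and 37 to 321 with single arrays left out. Other complement genes past it numbered 0 to 1 with single arrays left out. The median log2 fold change of the members stayed between −0.11 and −0.038. With the replicate number as a block, 325 genes and 1 complement member, Susd4 (adjusted p = 0.00931), passed; deviations correlated between same-numbered arrays at −0.081 to 0.45, and numbers 2 and 3 correlated best with another number.

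Of 538 member values under 18 alternatives, 23 in 9 members had the opposite sign, the largest of size 0.090, all of members near 0. After quantile normalization again C4b had 0.054, Cfb 0.040 and Serping1 0.043, and with centred arrays C4b had 0.018. With array weights Mbl1 had −0.028, C8b −0.041 and C1s1 −0.028, and without both arrays numbered 1 Mbl1 had −0.070, Cfp 0.013, C8b −0.090 and C1s1 −0.060. With single arrays left out Mbl1 ran from −0.072 to 0.078, Mbl2 from −0.11 to 0.020, C4b from −0.068 to 0.036, Cfp from −0.092 to 0.0017, C8b from −0.038 to 0.058, Cd46 from −0.017 to 0.050, Cpn2 from −0.078 to 0.0017 and C1s1 from −0.070 to 0.10. Quantile normalization again also brought some lower members closer to 0, Hc to −0.15, C4bp to −0.11, C8a to −0.064, C9 to −0.061, C8g to −0.052, Cfi to −0.036, Masp2 to −0.033 and Cpn1 to −0.028. The cause of these changes was not tested. Susd4 kept its direction in all 18 alternatives and its call in 9.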
